A study of Rattus norvegicus with 9 samples.

Results

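Molecular chaperones of the heat shock families and their cochaperones were followed in the medial prefrontal cortex (mPFC) of male SD rats. The genes were set by name: the HSP70 chaperones Hspa8 and Hspa5, the HSP90 chaperones Hsp90aa1 and Hsp90ab1, the HSP110 protein Hsph1, the J-domain cochaperones Dnajb1 and Dnajb5, the nucleotide exchange factor Bag3 and the small heat shock protein Hspb1. These genes and the wider lists below were chosen with earlier results of these data known, so counts among them are not independent. All 9 were found by symbol among the 34463 genes of the table, and all 9 were among the 16159 genes tested. The groups were CMS+PHL (rats given phloretin, a dihydrochalcone of apples, before and during chronic mild stress), CMS (rats given the carrier and exposed to chronic mild stress) and Vehicle (rats given the carrier and left in their home cages), with 3 libraries each. Chronic mild stress was a changing series of stressors such as restraint, cold water swimming and cage tilt. No library came from rats given phloretin without stress. The labels do not say whether each library came from a separate animal, so p-values measure the spread between these libraries, which may be technical.

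HSP70 proteins bind exposed hydrophobic stretches of unfolded proteins in a cycle driven by ATP. J-domain proteins bring substrates and start ATP hydrolysis, and nucleotide exchange factors of the HSP110 and BAG families release the substrate. HSP90 takes over partly folded clients such as kinases and steroid hormone receptors, including the glucocorticoid receptor that carries the stress hormone signal, and small heat shock proteins hold unfolded proteins without ATP. In neurons the constitutive HSP70, Hspa8, also strips clathrin from synaptic vesicles together with a J-domain partner. When proteins unfold, the transcription factor HSF1 binds heat shock elements, which are inverted repeats of the bases GAA, while unfolded proteins in the endoplasmic reticulum (ER) act through the ER stress element.

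The promoters are printed to show which members carry known stress response elements near their start. The RefSeq table (GRCr8) gave a window from 250 bases before to 50 bases after the gene start for 8 of the 9 genes, all but Hsp90aa1. The 3-unit heat shock element, GAANNTTCNNGAA or TTCNNGAANNTTC, lay in 2 of the 8 windows, against 0.798% of 33469 promoters, and the ER stress element, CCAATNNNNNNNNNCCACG on either strand, lay in 1 of the 8, against 0.0657%. Capitals mark those elements and also the 2-unit form, GAANNTTC or TTCNNGAA, which is contained in the 3-unit form. The windows of Hspa8 (chr8:50080264-50080563, + strand), Hsph1 (chr12:10427118-10427417, + strand), Hspa5 (chr3:38452766-38453065, + strand) and Dnajb5 (chr5:61972456-61972755, + strand) are given 5′ to 3′.
Hspa8: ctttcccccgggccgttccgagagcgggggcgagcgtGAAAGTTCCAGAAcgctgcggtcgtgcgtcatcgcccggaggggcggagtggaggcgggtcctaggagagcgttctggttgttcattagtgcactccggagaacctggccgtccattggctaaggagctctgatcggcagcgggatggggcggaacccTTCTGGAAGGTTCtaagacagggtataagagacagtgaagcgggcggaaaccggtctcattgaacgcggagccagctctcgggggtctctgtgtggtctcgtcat
Hsph1: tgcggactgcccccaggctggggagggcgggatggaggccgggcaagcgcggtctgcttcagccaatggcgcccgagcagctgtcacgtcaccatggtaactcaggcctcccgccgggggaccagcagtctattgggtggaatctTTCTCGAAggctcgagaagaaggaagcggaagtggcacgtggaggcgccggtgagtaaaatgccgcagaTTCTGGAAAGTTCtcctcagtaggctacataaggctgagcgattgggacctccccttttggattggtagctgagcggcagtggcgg
Hspa5: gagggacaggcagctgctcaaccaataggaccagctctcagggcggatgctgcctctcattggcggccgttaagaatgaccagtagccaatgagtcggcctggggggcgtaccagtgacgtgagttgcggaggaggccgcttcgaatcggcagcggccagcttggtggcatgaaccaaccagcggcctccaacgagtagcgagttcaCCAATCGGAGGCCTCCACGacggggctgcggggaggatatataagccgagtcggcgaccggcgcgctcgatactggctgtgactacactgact
Dnajb5: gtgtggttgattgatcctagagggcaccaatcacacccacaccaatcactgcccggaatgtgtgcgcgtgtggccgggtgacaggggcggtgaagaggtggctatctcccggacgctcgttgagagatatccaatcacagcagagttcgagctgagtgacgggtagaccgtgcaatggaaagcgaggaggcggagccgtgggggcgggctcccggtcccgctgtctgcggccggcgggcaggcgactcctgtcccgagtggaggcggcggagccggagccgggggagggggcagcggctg

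Hspa8 held 3-unit elements whose first bases lay 213 and 55 bases before the start, and Hsph1 held one 36 bases before it. The ER stress element of Hspa5, the gene of the ER chaperone BiP, began 43 bases before the start. The 2-unit element lay in 5 of the 8 windows, those of Hspa8, Hsph1, Dnajb1, Bag3 and Hspb1, against 15.9% of all promoters. The windows of Dnajb5 and Hsp90ab1 held none of these letters, which says nothing of sites outside them.

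**Figure D1:**
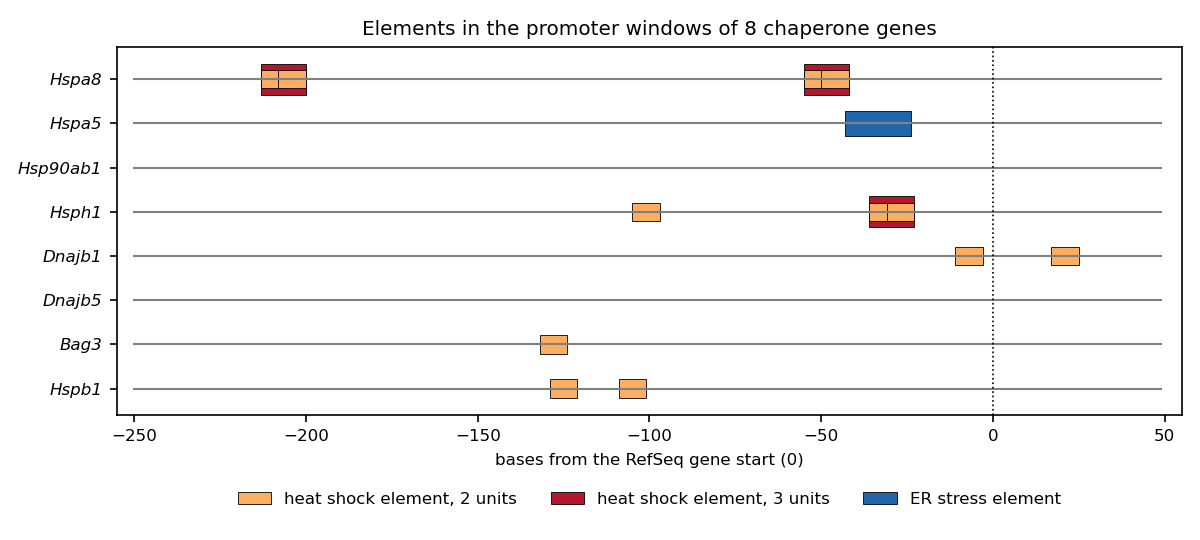
Position of heat shock elements (2 units in orange, 3 units in red) and of the ER stress element (blue) in the promoter windows of 8 genes; the x axis gives bases from the RefSeq gene start. Hspa8 has 3-unit elements at 213 and 55 bases before the start and Hsph1 at 36, and the lines of Dnajb5 and Hsp90ab1 are empty.

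The libraries held 14859419 to 16960004 reads in CMS+PHL, 15198823 to 16328673 in CMS and 13913639 to 16280963 in Vehicle, and mitochondrial genes took 6.96% to 9.09%, 9.67% to 13.9% and 9.74% to 10.6% of them in the same order. The cortical excitatory neuron genes Slc17a7, Neurod2 and Tbr1 were present in every library. Markers of other cells differed between the groups. Summed over the 10 myelin and oligodendrocyte genes, FPKM was 3346 to 7247 in CMS+PHL, 8463 to 11446 in CMS and 2463 to 3103 in Vehicle, and all 10 were higher in CMS than in Vehicle at an adjusted p under 0.05. Summed over 9 striatal genes, FPKM was 204 to 220.2 in CMS+PHL, 308 to 747 in CMS and 187 to 544 in Vehicle, where replicate 3 alone was high. The mean of the 10 excitatory neuron genes on the log2 scale, with the Vehicle mean at 0, was 0.00 to 0.17 in CMS+PHL, -0.32 to -0.16 in CMS and -0.09 to 0.08 in Vehicle. Their summed FPKM overlapped between the groups, at 2486 to 2775 in CMS+PHL, 1898 to 2766 in CMS and 2406 to 3234 in Vehicle. In bulk tissue, fewer cells of a type and less RNA per cell cannot be told apart.

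Levels are FPKM, fragments scaled to gene length and library size, so genes can be compared per length. The chaperones covered a wide range. Hsp90ab1, the constitutive cytosolic HSP90, was the most abundant of the 9 with a mean of 599 FPKM over the 9 libraries, followed by Hspa8 with 459, Hspa5 with 159.6 and Hsph1 with 101. Dnajb5 averaged 56.0 FPKM, Dnajb1 37.3, Hsp90aa1 25.8, Hspb1 11.2 and Bag3 5.10. The ranges of Hsp90ab1 and Hspa8 overlapped, as did those of Dnajb5 and Dnajb1, of Dnajb1 and Hsp90aa1, and of Hsp90aa1 and Hspb1. Every other pair of neighbours in this order was separated in all libraries. The level of the small heat shock protein and of Bag3 rests on few reads, 87 to 225 per library for Hspb1 and 130 to 249 for Bag3, whereas Dnajb5 had 1969 to 3292 and Hsp90ab1 17892 to 30109.

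**Figure D2:**
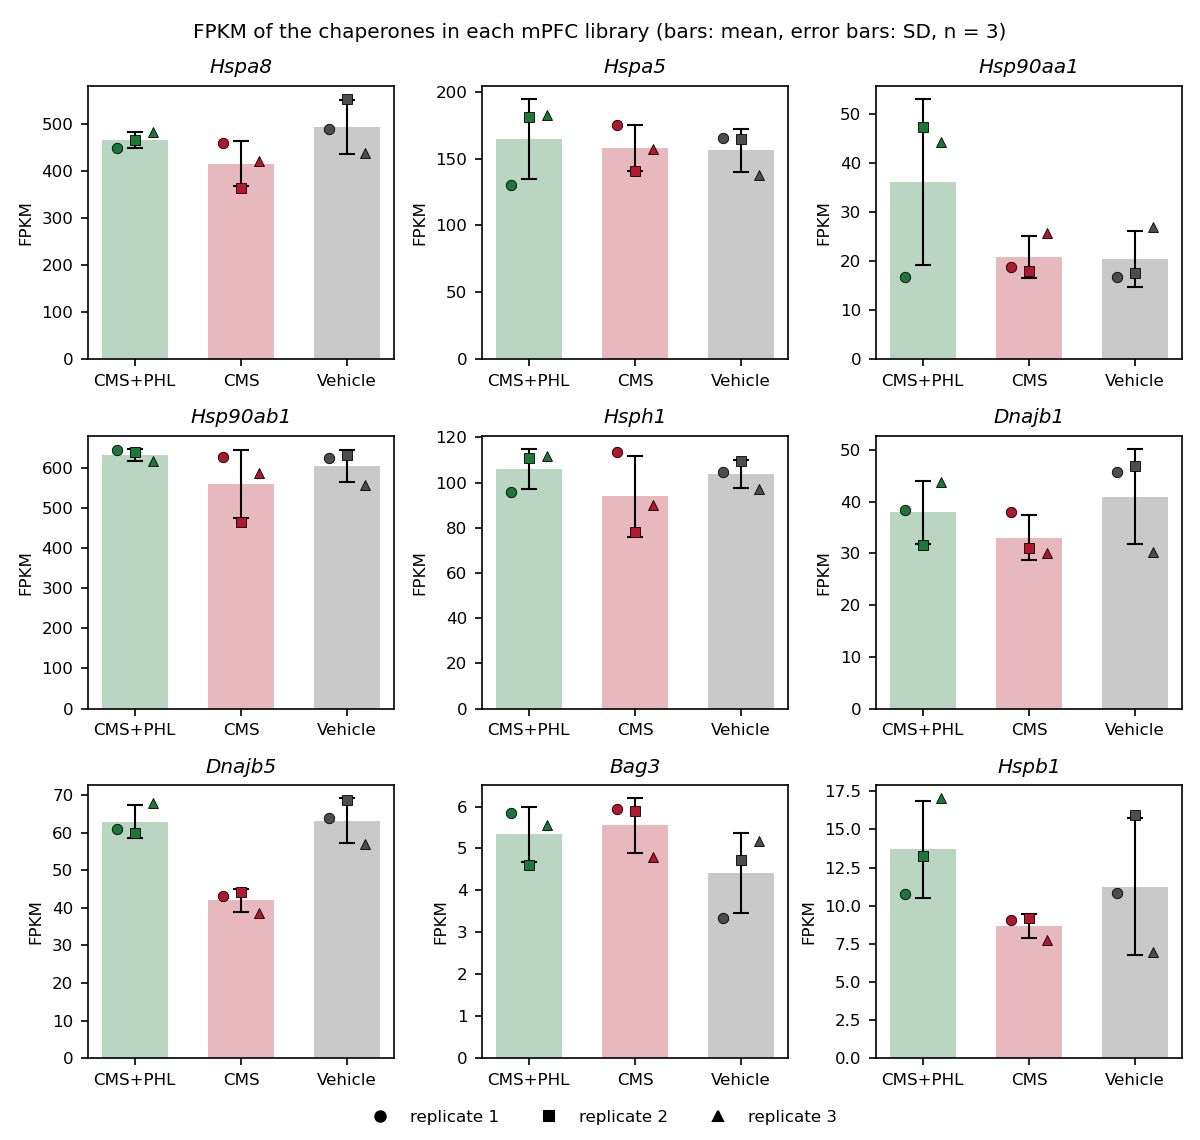
FPKM (y axis, from 0) of each chaperone gene in the CMS+PHL, CMS and Vehicle groups (x axis); points are libraries, bars the mean and error bars the SD of 3 libraries. The CMS libraries of Dnajb5 sit between 38.6 and 44.3 FPKM, below all CMS+PHL and Vehicle libraries, and Hsp90aa1 is at 47.4 and 44.4 FPKM in CMS+PHL replicates 2 and 3.

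The question of the design is whether stress changed the mPFC and whether phloretin changed the stressed mPFC. One chaperone, Dnajb5, passed the test between stressed and unstressed rats, and it was lower in CMS. In CMS against Vehicle 1 of the 9 genes had an adjusted p under 0.05 in limma's moderated test, against 3.79% of all genes tested. The same gene was the 1 with an unadjusted p under 0.05 (22.3% of all genes) and the 1 whose groups did not overlap (27.6%). Without Vehicle replicate 3 the unadjusted count was 5, with Bag3 higher and Dnajb1, Hspa8 and Hspb1 lower in CMS beside Dnajb5, when 23.8% of all genes passed. Without CMS replicate 1 it was 3, when 20.3% of all genes passed. The other 8 chaperones did not pass, although 6 of the 9 estimates were below 0. The median log2 fold change of the 9 was -0.16, against -0.02 for all genes, of which 47.5% were above 0. Between CMS+PHL and CMS 0 of the 9 passed the adjusted threshold, and 0% of all genes did. Dnajb5 and Hspb1 were higher at an unadjusted p under 0.05, 2 of the 9 against 15.7% of all genes, and the same 2 had groups that did not overlap, against 21.2%. That unadjusted count was 1 without CMS+PHL replicate 2 or 3, CMS replicate 2 or 3, or Vehicle replicate 1, when 10.3% to 17.1% of all genes passed. Of the 9 estimates 8 were above 0, with a median of 0.19 against 0.01 for all genes, of which 51.1% were above 0. CMS replicate 2 held the lowest value of Hspa8, Hsp90ab1 and Hsph1, and without it these genes were at 0.08, 0.06 and 0.06. Between CMS+PHL and Vehicle 0 of the 9 passed the adjusted (background 0%) or the unadjusted threshold (10.8%), 0 had groups that did not overlap (17.5%), and the median was 0.07. The first and the second comparison share the CMS libraries, so a low or high CMS library moves both in opposite directions.

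Dnajb5 encodes a J-domain cochaperone of HSP70, which in rodent heart muscle cells forms a complex with the histone deacetylase HDAC4. In the Rnor_6.0 build of the deposited table it spans chr5:58393233-58401870 on the + strand. Its FPKM was 60.9, 60.0 and 67.9 in CMS+PHL, 43.1, 44.3 and 38.6 in CMS, and 63.9, 68.8 and 56.9 in Vehicle. Each CMS library lay below each library of the other groups, and CMS+PHL and Vehicle overlapped. The mean was 63.0 ± 4.35 FPKM in CMS+PHL, 41.98 ± 3.01 in CMS and 63.2 ± 5.98 in Vehicle (SD, n = 3 each). In CMS against Vehicle Dnajb5 fell by 33.4%, a log2 fold change of -0.59 (SE 0.093, adjusted p = 0.0263). That adjusted p was the lowest of the comparison, shared with other genes, and the raw p ranked 73 of 16159. The log2 fold change in CMS+PHL against CMS was 0.58 (SE 0.093, 95% interval 0.37 to 0.79), with an unadjusted p of 0.000146, ranked 14, and an adjusted p of 0.149. Between CMS+PHL and Vehicle it was -0.00, with a 95% interval of -0.21 to 0.21. The exact two-sided permutation test of 3 against 3 libraries gave 0.1 for each of the first 2 comparisons, the smallest p it allows.

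The size of the Dnajb5 difference was stable, while its call was not. Over all the alternatives run the log2 fold change in CMS against Vehicle stayed between -0.66 and -0.51. The adjusted p was 0.0522, 0.0754 and 0.0828 without CMS replicates 1, 2 and 3 in turn, 0.0970 without Vehicle replicate 1 and 0.116 without Vehicle replicate 2, and 0.0591 with moderation without a trend. Leaving out CMS+PHL replicate 2 gave CMS+PHL against CMS an adjusted p of 0.0371. Several measures also differed between the groups. With the Vehicle mean at 0, the log2 myelin mean was 1.54 to 1.89 in CMS, where Dnajb5 was at -0.71 to -0.51. In CMS+PHL replicates 1, 2 and 3 the myelin mean was 0.35, 1.31 and 0.19, and Dnajb5 was at -0.05, -0.07 and 0.11. In Vehicle replicate 3 the striatal genes summed to 544 FPKM, and Dnajb5 had 56.9 FPKM, its lowest value in Vehicle. In Vehicle replicates 1 and 2 the striatal genes summed to 187 and 212 FPKM, and Dnajb5 had 63.9 and 68.8 FPKM. Besides the myelin, striatal and excitatory neuron markers above, 15 immediate early genes, which neuronal activity induces, summed to 578 to 656 FPKM in CMS+PHL, 364 to 514 in CMS and 539 to 1132 in Vehicle. Their mean on the log2 scale, with the Vehicle mean at 0, was -0.60 to -0.38, -1.15 to -0.66 and -0.68 to 0.45 in the same order. On that scale CMS and Vehicle overlapped. All 15 had estimates below 0 in CMS against Vehicle and 1 of them had an adjusted p under 0.05. Of the 15, 12 were above 0 in CMS+PHL against CMS, and 12 were below 0 in CMS+PHL against Vehicle, with a median of -0.39. The part of these markers in the Dnajb5 result was not tested. Without Vehicle replicate 3 the log2 fold change in CMS against Vehicle was -0.66 with an adjusted p of 0.0408.

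**Figure D3:**
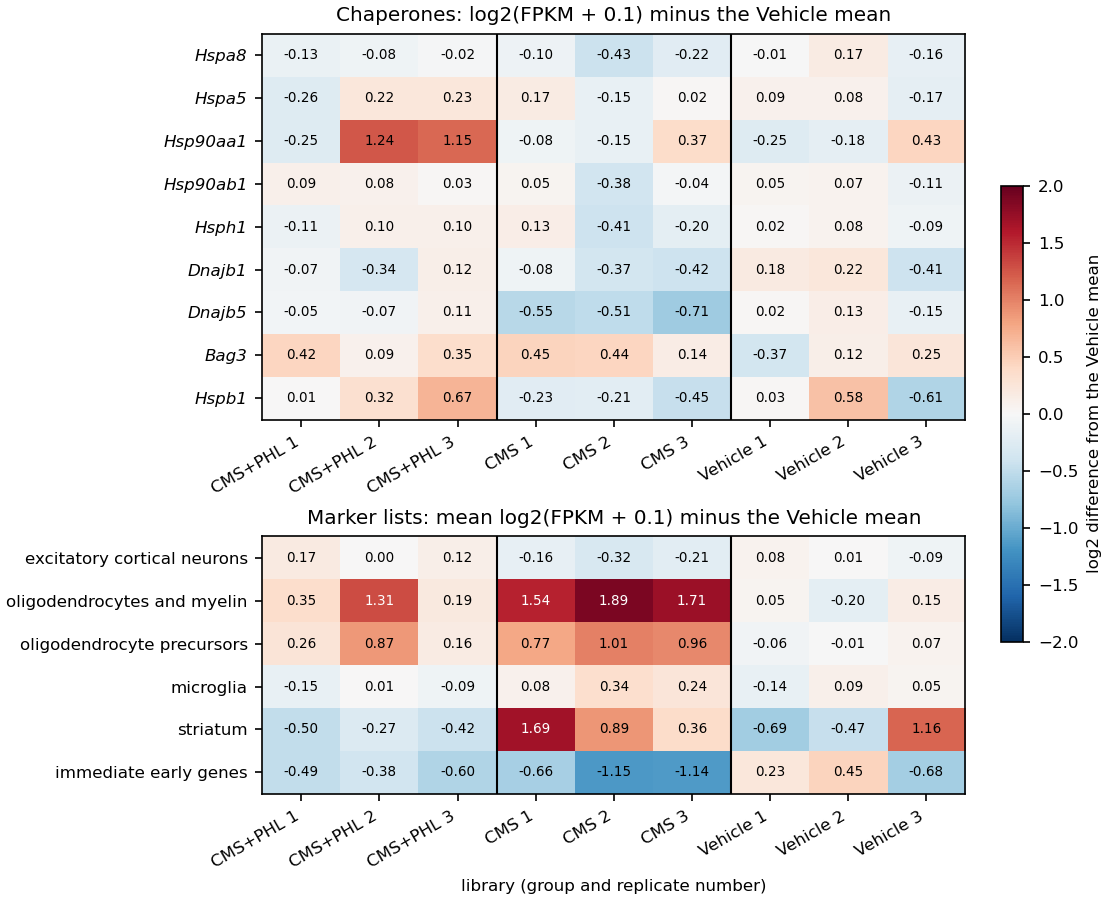
Difference of log2(FPKM + 0.1) from the Vehicle mean in each library (columns, CMS+PHL, CMS and Vehicle from left to right) for the 9 chaperones (upper panel) and for the mean of marker lists (lower panel). Dnajb5 is at -0.71 to -0.51 in CMS, where the myelin list is at 1.54 to 1.89, and Hsp90aa1 is at 1.24 and 1.15 in CMS+PHL replicates 2 and 3.

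Dnajb1, the main J-domain partner of cytosolic HSP70 and a classical heat shock gene, had 38.3, 31.7 and 43.8 FPKM in CMS+PHL, 38.1, 31.0 and 30.1 in CMS, and 45.7, 47.0 and 30.3 in Vehicle. The groups overlapped, and Vehicle replicate 3 was as low as the lower CMS libraries. The log2 fold change was 0.19 (SE 0.19, adjusted p = 0.643) in CMS+PHL against CMS and -0.29 (SE 0.19, adjusted p = 0.401) in CMS against Vehicle. The Vehicle libraries spread more for Dnajb1 than for Dnajb5, with an SD of 9.27 FPKM for Dnajb1 and 5.98 FPKM for Dnajb5. Without Vehicle replicate 3, Dnajb1 reached -0.49 in CMS against Vehicle, with an unadjusted p of 0.0110 and an adjusted p of 0.106, and without Vehicle replicate 2 it was -0.18. In CMS+PHL against CMS its estimate lay between 0.08 without CMS+PHL replicate 3 and 0.32 without CMS+PHL replicate 2.

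The HSP70 chaperones differed in how they varied. Hspa8 had 449, 466 and 484 FPKM in CMS+PHL, 460.4, 365 and 423 in CMS, and 489, 554 and 439 in Vehicle. Its lowest value was in CMS replicate 2, its highest was in Vehicle replicate 2, and the groups overlapped. The log2 fold change was 0.17 (SE 0.11, adjusted p = 0.487) in CMS+PHL against CMS and -0.25 (SE 0.11, unadjusted p = 0.0514, adjusted p = 0.228) in CMS against Vehicle. Without CMS replicate 2 these were 0.08 and -0.16. Hspa5, the ER chaperone that rises when the unfolded protein response is switched on, had 130.3, 181 and 183 FPKM in CMS+PHL, 175, 141 and 158 in CMS, and 166, 165 and 138 in Vehicle. Each group of Hspa5 spanned much of the whole range. Its log2 fold change was 0.05 in CMS+PHL against CMS, with a 95% interval of -0.28 to 0.38, and 0.01 in CMS against Vehicle, with an interval of -0.32 to 0.34. Changes within those intervals remain compatible with the data from 3 libraries a group, and the intervals set no limit of detection.

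Hspa8 has near copies in the rat genome, and the counting could split reads between them. The table holds 3 genes annotated as like it, whose reads came to 13.8% of those of Hspa8. LOC680121 on chromosome 11, with a mean of 46.5 FPKM, made up most of this. With the copies summed, an alternative added after seeing the data, the log2 fold change in CMS against Vehicle was -0.22 in place of -0.25. The Hspa8 gene also contains 3 small nucleolar RNAs of the name SNORD14 on its own strand, with mean levels of 0.336 to 3.08 FPKM, and no other of the 9 genes overlapped another annotated gene.

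Of the HSP90 pair, Hsp90ab1 was steady and Hsp90aa1 was not. Hsp90ab1 had 644, 638 and 616 FPKM in CMS+PHL, 627, 465 and 586 in CMS, and 624, 631 and 557 in Vehicle, a coefficient of variation of 9.55% over the 9 libraries, the smallest of the 9 genes. CMS replicate 2 stood apart at the low end, and the lowest adjusted p of Hsp90ab1 in the comparisons was 0.456. Its log2 fold change was 0.19 in CMS+PHL against CMS and -0.12 in CMS against Vehicle, and without CMS replicate 2 these were 0.06 and 0.01. Hsp90aa1, the stress-inducible cytosolic HSP90, had 16.7, 47.4 and 44.4 FPKM in CMS+PHL, 18.9, 18.0 and 25.8 in CMS, and 16.8, 17.6 and 27.0 in Vehicle. CMS+PHL replicates 2 and 3 were above every other library, while CMS+PHL replicate 1 was the lowest of all 9. The log2 fold change of 0.67 in CMS+PHL against CMS had an SE of 0.37 and an adjusted p of 0.423. Leaving out CMS+PHL replicate 1 raised the estimate to 1.15, with an unadjusted p of 0.000955 and an adjusted p of 0.348. It was 0.40 without CMS+PHL replicate 2 and 0.45 without CMS+PHL replicate 3. The value depended on which CMS+PHL libraries were kept, and the cause of the difference among the CMS+PHL libraries was not tested. Hspa5 showed the same split, with 130.3 FPKM in CMS+PHL replicate 1 and 181 and 183 FPKM in replicates 2 and 3. Hsph1 showed it to a smaller degree, with 95.9 FPKM against 111.0 and 111.6. Hspa8 and Hspb1 were also lowest in replicate 1 of that group. Hsp90ab1 and Bag3 were highest there, and Dnajb1 and Dnajb5 were lowest in replicate 2. The annotated near copies of Hsp90aa1 did not show the split. LOC680491, a processed pseudogene on chromosome 13, had 5.87, 5.53 and 4.57 FPKM in CMS+PHL and LOC103692716 had 2.51, 1.83 and 3.63. Together the copies held 28.4% as many reads as Hsp90aa1, and the log2 fold change of the sum was 0.49 in CMS+PHL against CMS.

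Hsph1, the HSP110 protein that exchanges nucleotide on HSP70 and helps to dissolve aggregates, had 95.9, 111.0 and 111.6 FPKM in CMS+PHL, 113.5, 78.1 and 90.3 in CMS, and 104.9, 109.4 and 97.4 in Vehicle. Both its highest and its lowest library were CMS libraries. The log2 fold change was 0.19 (SE 0.13, adjusted p = 0.516) in CMS+PHL against CMS and -0.16 (SE 0.13, adjusted p = 0.516) in CMS against Vehicle. Its estimates rested on single CMS libraries, being 0.06 and -0.04 without CMS replicate 2 and 0.33 and -0.31 without CMS replicate 1 in the same comparisons. Bag3, the BAG protein that links HSP70 to small heat shock proteins and to selective autophagy, had 5.85, 4.61 and 5.55 FPKM in CMS+PHL, 5.95, 5.90 and 4.80 in CMS, and 3.34, 4.71 and 5.17 in Vehicle. Bag3 ran against most of the others, with a log2 fold change of 0.34 (SE 0.18, adjusted p = 0.303) in CMS against Vehicle and -0.06 (SE 0.18, adjusted p = 0.910) in CMS+PHL against CMS. Without Vehicle replicate 1, the lowest library, the first was 0.16. None of these passed the threshold.

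Hspb1, the small heat shock protein HSP27, had 10.8, 13.3 and 17.05 FPKM in CMS+PHL, 9.09, 9.20 and 7.75 in CMS, and 10.8, 16.0 and 6.97 in Vehicle. All CMS+PHL libraries lay above all CMS libraries, while Vehicle spanned nearly the whole range. The log2 fold change in CMS+PHL against CMS was 0.63 (SE 0.27, 95% interval 0.01 to 1.25), with an unadjusted p of 0.0471 and an adjusted p of 0.310. In CMS against Vehicle it was -0.30 (SE 0.27, adjusted p = 0.573), and leaving out Vehicle replicate 2 brought it to -0.01, leaving out Vehicle replicate 3 to -0.60. This measure is set by single Vehicle libraries, and Hspb1 has the fewest reads of the 9 genes.

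**Figure D4:**
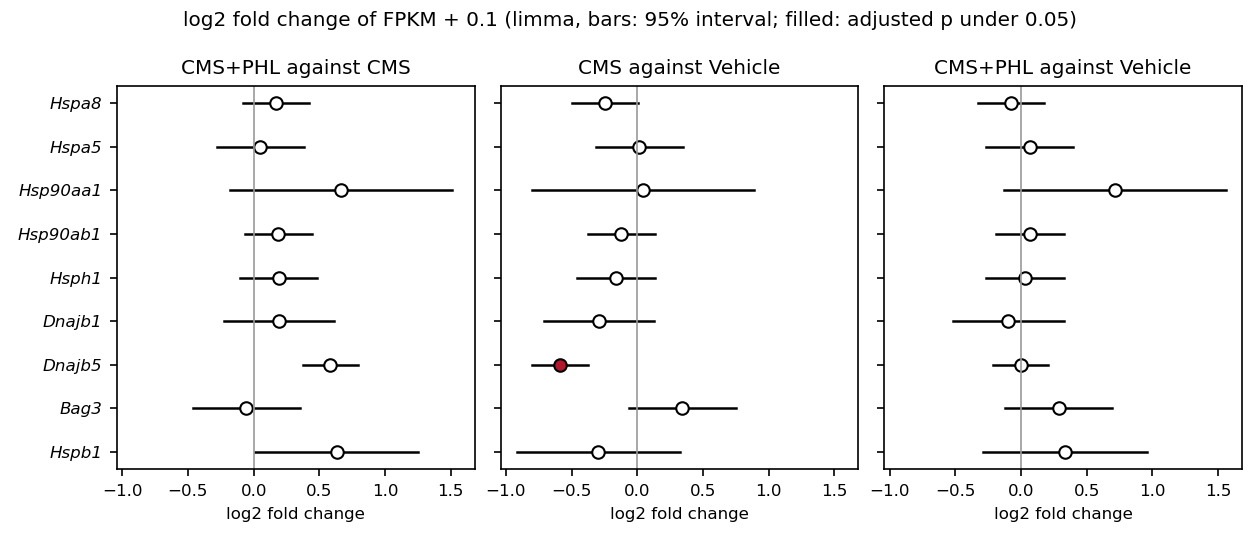
log2 fold change of FPKM + 0.1 (x axis) with its 95% interval for each chaperone in CMS+PHL against CMS, CMS against Vehicle and CMS+PHL against Vehicle; the filled point marks an adjusted p under 0.05. The interval of Dnajb5 lies below 0 in CMS against Vehicle and above 0 in CMS+PHL against CMS, and every interval in CMS+PHL against Vehicle crosses 0.

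Across libraries the members did not move as one. CMS replicate 2 held the lowest value of 3 of the 9 genes (Hspa8, Hsp90ab1 and Hsph1), and it was also the library with the largest mitochondrial share, 13.9%. CMS replicate 3 held the lowest value of 2, Dnajb5 and Dnajb1, and Vehicle replicate 2 held the highest of 3, Hspa8, Dnajb1 and Dnajb5. After each gene was scaled to mean 0 and SD 1, the gene closest to the mean of the 9 was Hsph1, with a root mean square difference of 0.418 over the 9 libraries, and the farthest was Bag3 with 1.44. Outside the set, the genes with the most similar pattern to that mean were Filip1l (0.246), Numb (0.301), Maco1 (0.378), Nanos1 (0.387) and Srf (0.389, serum response factor, a transcription factor). The same measure for Dnajb5, which was chosen after its values were seen, gave Asmt (0.184, at a mean of only 0.676 FPKM), Cry2 (0.294, a repressor of the circadian clock), Egr3 (0.306, an immediate early transcription factor), Inca1 (0.313) and Cx3cl1 (0.319, the neuronal chemokine fractalkine). Egr3 had 58.4, 57.3 and 63.5 FPKM in CMS+PHL, 44.0, 34.6 and 31.8 in CMS, and 57.0, 65.1 and 46.5 in Vehicle. Each CMS library was below all others, but Egr3 was picked for its likeness to Dnajb5 over these same libraries. Its low CMS values are therefore not separate evidence.

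The wider chaperone network was read from lists of 106 genes, of which 105 were in the table and 101 were tested. Without the 9 members, 92 were tested. In CMS against Vehicle 2 of the 92 passed the adjusted threshold, both lower in CMS, against the 3.79% of all genes. Hspbp1, a nucleotide exchange factor of HSP70, had 69.5, 72.9 and 84.0 FPKM in CMS+PHL, 62.9, 60.3 and 64.8 in CMS, and 81.8, 83.1 and 78.4 in Vehicle. Its log2 fold change was -0.37 (SE 0.081, adjusted p = 0.0424) in CMS against Vehicle and 0.26 (adjusted p = 0.184) in CMS+PHL against CMS. Grpel1, the exchange factor of mitochondrial HSP70, had 52.1, 49.7 and 53.8 FPKM in CMS+PHL, 45.2, 48.0 and 47.1 in CMS, and 60.3, 60.3 and 56.9 in Vehicle, with a log2 fold change of -0.34 (SE 0.063, adjusted p = 0.0323) in CMS against Vehicle. In CMS+PHL against CMS the log2 fold change of Grpel1 was 0.15 (adjusted p = 0.303). In both genes, all CMS libraries were below all others. Groups did not overlap for 27.6% of all genes in CMS against Vehicle and for 21.2% in CMS+PHL against CMS. The CMS+PHL libraries of Grpel1 were also all below its Vehicle libraries (17.5% of all genes did not overlap there), at -0.19 (adjusted p = 0.360). Neither call held under all alternatives: the adjusted p of Hspbp1 was above 0.05 in 11 of 23, with a highest value of 0.154 without Vehicle replicate 2, and that of Grpel1 in 10 of 23, with a highest value of 0.134 without the same library. Of the libraries left out in turn, those whose loss ended the call were CMS+PHL replicate 1, each CMS library and Vehicle replicates 1 and 2 for both genes, and Vehicle replicate 3 for Hspbp1. At an unadjusted p under 0.05, 5 of the 92 were higher and 14 lower in CMS than in Vehicle, 20.7% against 22.3% of all genes, and the median log2 fold change was -0.10. Among the 92, in CMS+PHL against CMS, 7 were higher and 4 lower, 12% against 15.7%, and the median was 0.05. The share that passed was thus near that of all genes.

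By family, the 8 tested subunits of the cytosolic chaperonin TRiC, which folds actin and tubulin, were all below 0 in CMS against Vehicle, with a median of -0.19, and 0 of the 8 passed the adjusted threshold, while 47.5% of all genes were above 0 in that comparison. The list mean on the log2 scale, with the Vehicle mean at 0, was -0.15 to -0.04 in CMS+PHL, -0.04, -0.40 and -0.11 in CMS, and -0.05 to 0.07 in Vehicle, so CMS replicate 2 stood apart, and without it 6 of the 8 were below 0 with a median of -0.08. The smallest p of these was that of Cct7, at -0.21 (adjusted p = 0.156). Of the 19 J-domain proteins 14 were below 0 in CMS against Vehicle with a median of -0.12, and Dnajb5 was the only one of them past the adjusted threshold. Of the 12 HSP90 cochaperones 9 were below 0 with a median of -0.12. CMS replicate 2 had the lowest mean of both lists, -0.18 for each, and without it the medians were -0.07 for the J-domain proteins and -0.02 for the HSP90 cochaperones, of which 7 were then below 0. Unc45a, an HSP90 cochaperone for myosin, had 20.6, 21.2 and 21.1 FPKM in CMS+PHL, 15.5, 16.3 and 19.0 in CMS, and 19.1, 18.3 and 20.5 in Vehicle, and its log2 fold change of 0.31 in CMS+PHL against CMS had an adjusted p of 0.178. Stub1, the ubiquitin ligase CHIP that acts on HSP70 and HSP90 clients, was at -0.29 (adjusted p = 0.102) in CMS against Vehicle and 0.26 (adjusted p = 0.221) in CMS+PHL against CMS. Hspa2, another HSP70 gene, was at -0.40 (adjusted p = 0.0967) and 0.36 (adjusted p = 0.208) in the same comparisons, and passed in the first with library weights (adjusted p = 0.0430).

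The 21 tested genes of the ER chaperones and the unfolded protein response, Hspa5 among them, had a median of 0.04 in CMS against Vehicle and -0.02 in CMS+PHL against CMS, and 0 passed the adjusted threshold. In CMS against Vehicle 16 of the 21 were above 0. That number was 10 without Vehicle replicate 3, with a median of -0.01, and 11 without CMS replicate 1. The protein disulfide isomerases P4hb and Pdia4 had the smallest p of the list in CMS against Vehicle, at 0.27 (adjusted p = 0.0570) and 0.40 (adjusted p = 0.0911). Each passed in 3 of 23 alternatives, with a lowest adjusted p of 0.0276 for P4hb and 0.0423 for Pdia4, both with library weights. Hsf1, the heat shock transcription factor, had 9.74, 13.4 and 10.9 FPKM in CMS+PHL, 10.3, 11.5 and 11.3 in CMS, and 10.5, 9.91 and 11.5 in Vehicle. Its log2 fold change was 0.03 (SE 0.12) in CMS+PHL against CMS and 0.06 (SE 0.12) in CMS against Vehicle. Hsf2 was at 0.01 in both. Hsbp1, a small protein that binds HSF1, had 247.9, 243.5 and 246.9 FPKM in CMS+PHL, 236, 227 and 234 in CMS, and 274, 254 and 265 in Vehicle. The CMS libraries were the lowest of the 3 groups with no overlap, and the log2 fold change was -0.18 (SE 0.060, unadjusted p = 0.0134, adjusted p = 0.118) in CMS against Vehicle and 0.08 (adjusted p = 0.542) in CMS+PHL against CMS. Hspa1b, an HSP70 gene strongly induced by heat, was named after its values were seen and was near the minimum level tested, at 0.301, 0.488 and 1.76 FPKM in CMS+PHL, 0.685, 0.648 and 0.417 in CMS, and 1.24, 1.03 and 0.344 in Vehicle, with no separation of the groups.

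The small heat shock proteins held the widest spread of estimates, and Hspb1 did not share its pattern with Cryab. Cryab, alphaB-crystallin, which oligodendrocytes express, had 23.9, 55.9 and 33.7 FPKM in CMS+PHL, 96.2, 61.9 and 61.3 in CMS, and 34.9, 29.9 and 22.7 in Vehicle. Each CMS library was above all others, and the log2 fold change was 1.31 (SE 0.31, adjusted p = 0.0511) in CMS against Vehicle and -1.01 (SE 0.31, adjusted p = 0.184) in CMS+PHL against CMS. The first of these passed in 7 of 23 alternatives, and without CMS+PHL replicate 2 the adjusted p was 0.0199 and 0.0487 in the same comparisons. The myelin genes moved in the same directions, with a median of 1.72 and -1.11 in those comparisons, and the part of oligodendrocyte RNA in the Cryab values was not tested. Hspb2, at a mean of only 2.81 FPKM, was at -1.05 (SE 0.26, adjusted p = 0.0592) in CMS against Vehicle. It passed there with protein-coding genes only (adjusted p = 0.0468), and its estimate ranged from -1.28 to -0.74 over the alternatives. Its lowest level was in CMS replicate 1. The CMS+PHL libraries of Hspb2 were all below its Vehicle libraries too, with a log2 fold change of -0.75 (adjusted p = 0.376). Hspb11 was at -0.53 (adjusted p = 0.149) in CMS+PHL against CMS. Among the mitochondrial chaperones Clpp, the protease subunit of the ClpXP complex, had 43.0, 50.9 and 38.5 FPKM in CMS+PHL, 28.5, 25.0 and 31.4 in CMS, and 30.8, 30.4 and 29.0 in Vehicle. It was above both other groups in each CMS+PHL library, with a log2 fold change of 0.64 (SE 0.12, adjusted p = 0.149) against CMS, and did not pass the threshold.

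**Figure D5:**
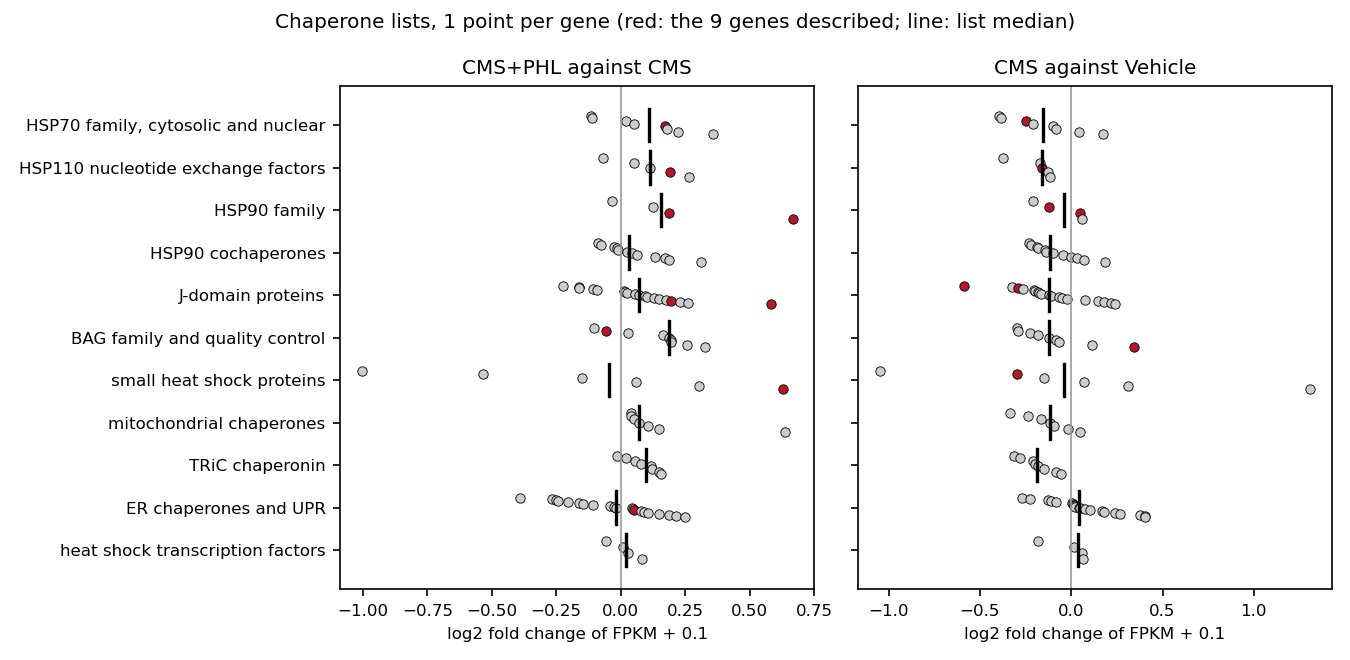
log2 fold change of FPKM + 0.1 (x axis) of each tested gene of the chaperone lists (rows) in CMS+PHL against CMS and CMS against Vehicle; points are genes, red points the 9 chaperones described, and lines list medians. In CMS against Vehicle the TRiC line is at -0.19 with all 8 points below 0, and Cryab at 1.31 and Hspb2 at -1.05 are the outermost points.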

How the data were processed

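RNA from mPFC tissue was sequenced and, per the submitters' processing notes, aligned with HISAT2 to Rnor_6.0. How reads were counted, whether by strand, and with which annotation is not stated in what was read here. The authors deposited 1 table of FPKM (9 libraries, 34463 genes) whose values, multiplied by gene length, are whole multiples of 1 step per library (tolerance 1e-06), and those multiples were taken as reads. The FPKM already carry a scaling between libraries. Genes with a mean of at least 0.5 FPKM (16159; 18304 left out) were fitted with limma 3.58.1 in R 4.3.3 on log2(FPKM + 0.1), with a variance trend and all 3 groups together (9.04 degrees of freedom). Fold changes are on that scale and understate changes of low genes. Tests were two-sided, adjusted by Benjamini-Hochberg over all genes, with a threshold of 0.05. Named from the wider lists were genes past that threshold, up to 3 with the smallest p per list, and Hsf1 and Hsf2; likeness was the root mean square difference of scaled profiles. The members and lists were chosen with earlier results of these data known. The script was tested on simulated data. Alternatives covered the pseudocount, filter, scaling, moderation, weights, a replicate block and each library left out.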

Additional observations from a re-analysis of the deposited data

How the results depend on the processing

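Over the log2 fold changes of the 9 chaperones, 591 of the values under alternatives kept their direction and side of the threshold, 7 lost and 1 gained a call, all for Dnajb5, and 28 changed sign, all of estimates that had not passed. In CMS against Vehicle the number past the adjusted threshold was 0 rather than 1 with moderation without a trend and ranged from 0 to 1 with a library left out, and the number past the unadjusted threshold was 2 with robust moderation, library weights or protein-coding genes only and 1 to 5 with a library left out. It was 5 without Vehicle replicate 3 (Bag3, Dnajb1, Dnajb5, Hspa8 and Hspb1) and 3 without CMS replicate 1 (Dnajb5, Hspa8 and Hsph1). Between CMS+PHL and CMS, 0 to 1 passed the adjusted threshold with a library left out and 1 to 3 the unadjusted one, which 1 passed with no filter on low values or without a trend. Between CMS+PHL and Vehicle the unadjusted count was 1 with library weights and 0 to 1 with a library left out. The replicate numbers did not pair the libraries (correlations of same-numbered deviations -0.097 to 0.048); with a replicate block 0 of the 9 passed the adjusted threshold in CMS against Vehicle, Dnajb5 having an adjusted p of 0.0534, and 1 the unadjusted one in CMS+PHL against Vehicle (Hsp90aa1). Over all genes the count past the adjusted threshold in CMS against Vehicle was 613, and 301 with no filter, 1315 with library weights, 2 without a trend and 0 with the block. Signs turned under quantile normalization for Dnajb5 (0.038) and Hspa8 (0.034) in CMS+PHL against Vehicle and Hsp90ab1 (0.022) in CMS against Vehicle, under library weights for Bag3 (0.017) in CMS+PHL against CMS, and in limma's voom on the reads for Dnajb5 (0.014) in CMS+PHL against Vehicle. With a library left out, values ranged from -0.16 to 0.044 for Bag3 and -0.033 to 0.21 for Hspa5 in CMS+PHL against CMS, from -0.11 to 0.26 for Hsp90aa1, -0.21 to 0.0067 for Hsp90ab1 and -0.073 to 0.094 for Hspa5 in CMS against Vehicle, and from -0.30 to 0.027 for Dnajb1, -0.077 to 0.060 for Dnajb5, -0.022 to 0.23 for Hspa5, -0.16 to 0.0078 for Hspa8 and -0.017 to 0.10 for Hsph1 in CMS+PHL against Vehicle. Of the wider chaperones named, Hsf2 turned to -0.016 under quantile normalization in CMS against Vehicle (-0.030 to 0.098 over all alternatives) and to -0.057 with library weights and -0.0029 with scaling to reads outside mitochondrial genes in CMS+PHL against CMS (-0.075 to 0.075), and with a library left out Hsf1 and Hspb2 reached -0.095 and -0.0037 in CMS+PHL against CMS, against highest values of 0.13 and 0.53. Scaling to reads outside mitochondrial genes, added after seeing the data, changed no call of the 9. The causes were not tested.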
